A study of Homo sapiens with 96 samples.

Results

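The genes described were 8 transcription factors of the primed state of pluripotency, ZIC2, ZIC5, OTX2, SOX11, SOX4, TCF7L1, ETV4 and ETV5, taken by name from the 58521 gene symbols of each count table. Their levels were read over 84 of the 96 libraries, those with at least 100000 gene reads, at least 2000 genes with a read and at least 1% of gene reads from mitochondrially encoded genes. Each library was 1 well of a single plate of 8 rows and 12 columns. By design a well held 1 cell of HUES64, an established human embryonic stem cell line. Whether every well held an intact cell was not tested. The method reads DNA methylation and RNA from the same cell, and only the RNA was analysed here.

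All 96 wells formed a single group: day 0 cells in which DNMT1, the maintenance DNA methyltransferase, could be knocked out by induction. The labels differed on whether the inducer doxycycline was present, since a free-text line named the drug as added and the induction field said that it was not. No untreated line, other genotype or second culture was named, so the group counted as 1 sample, all values below describe this plate, and no test between groups was made. The mean ± SD of a gene is therefore its spread over single cells of 1 sample. Levels are given as CPM, reads per 1e6 gene reads of the library, and levels of different genes were ranked only per kilobase of exon.

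Human embryonic stem cells in standard culture are usually in the primed state, which resembles the epiblast after implantation, whereas the naive state resembles the epiblast before it. Primed cells keep the shared core factors POU5F1, SOX2 and NANOG but bind different enhancers, and in mouse cells OTX2 and the ZIC factors take part in that change of enhancers. FGF signalling through ERK and active WNT signalling act on this balance: ETV4 and ETV5 are known targets and effectors of FGF signalling, and TCF7L1 represses WNT target genes in the absence of signal. SOX4 and SOX11 are close relatives in the SoxC group and are best known from neural and mesenchymal progenitors.

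The 84 libraries had 118549 to 1877837 gene reads (median 768161) and 7986 to 19336 genes with a read (median 14046). A count of 3 reads corresponded to 1.60 to 25.3 CPM, so that the level of 10 CPM used below lay under 3 reads in the shallowest libraries. A further 9 libraries had under 1% mitochondrial reads, with 87891 to 155710 gene reads each and 1009549 in sum. GAPDH had a median of 1062 CPM in the 84 libraries, against 8.44 CPM in these 9. The 14 core pluripotency genes summed to 76.5 to 6743 CPM (median 4077) in the 84 libraries, against 75.98 to 232 CPM (median 122) in the 9. The 9 libraries, of which 6 passed the limits on reads and genes, served as a comparison for signal in libraries where GAPDH and the core pluripotency genes were low. Plate rows F and G stood apart in depth and in genes detected: their 22 libraries had medians of 498244 gene reads and 16155 genes, against 889048 and 13345.5 in the 62 libraries of the other rows. No 2 passing libraries held identical counts. For 16 libraries of plate columns 1 and 12 the title and the name of the table gave different columns, and well names below follow the titles.

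For the gene pair compared most closely below, and for the factor with the most uneven levels, the sequences at the start of the gene are shown, since the same cells were also profiled by reduced representation bisulfite sequencing, which reads DNA next to MspI sites. They run from 250 bases before to 50 bases after a transcription start in RefSeq on GRCh38.p14, and capitals mark CCGG, the site that MspI cuts. ZIC2 lies at chr13:99981534-99981833 on the plus strand, ZIC5 (the first of 3 listed starts) at chr13:99971860-99972159 on the minus strand, and OTX2 (the first of 2) at chr14:56810430-56810729 on the minus strand.
ZIC2: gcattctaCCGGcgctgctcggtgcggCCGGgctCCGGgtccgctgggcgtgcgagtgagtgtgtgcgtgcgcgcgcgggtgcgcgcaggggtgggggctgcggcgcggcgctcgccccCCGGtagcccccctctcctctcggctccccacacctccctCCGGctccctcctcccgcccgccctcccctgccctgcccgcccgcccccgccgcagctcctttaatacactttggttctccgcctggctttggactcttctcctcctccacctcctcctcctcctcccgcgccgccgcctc
ZIC5: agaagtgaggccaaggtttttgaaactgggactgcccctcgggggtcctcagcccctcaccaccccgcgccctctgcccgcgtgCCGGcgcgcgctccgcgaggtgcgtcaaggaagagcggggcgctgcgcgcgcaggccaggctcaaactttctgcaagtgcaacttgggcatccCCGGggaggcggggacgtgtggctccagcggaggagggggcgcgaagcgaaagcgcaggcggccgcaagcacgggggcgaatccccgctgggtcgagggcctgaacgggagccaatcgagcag
OTX2: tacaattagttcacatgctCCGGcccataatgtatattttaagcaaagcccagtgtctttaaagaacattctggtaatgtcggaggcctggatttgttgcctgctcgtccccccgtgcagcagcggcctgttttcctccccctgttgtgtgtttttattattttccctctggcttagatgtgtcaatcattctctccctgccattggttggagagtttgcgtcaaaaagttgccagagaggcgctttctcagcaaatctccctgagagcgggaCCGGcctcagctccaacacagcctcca
The ZIC2 sequence held 35 CpG and 5 CCGG, the ZIC5 sequence 33 CpG and 2 CCGG, and the OTX2 sequence 9 CpG and 2 CCGG. Among all 35116 RefSeq windows of this kind, the median was 14 CpG and 63.1% held at least 1 CCGG, a motif that reads the same on both strands. TCF7L1 had 31 CpG and 6 CCGG in its window, and SOX4 had 8 CpG and 1 CCGG. SOX11, ETV4 and ETV5 are named only. Methylation at these sites was not analysed here.

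All 8 factors had reads in these cells, but not at the same depth or with the same regularity. SOX4 and SOX11 were read in all 84 libraries, and together they took 75.2% of the 70878 reads on the 8 genes. ZIC2, ZIC5 and ETV5 were read in 77 or 78 libraries, TCF7L1 in 61, ETV4 in 55 and OTX2 in 42. Per kilobase of exon, the order of mean levels was SOX4 at 86.9 CPM per kb, SOX11 at 25.8, ZIC2 at 24.9, OTX2 at 11.9, ETV5 at 10.6, ETV4 at 8.67, ZIC5 at 8.06 and TCF7L1 at 3.88. Between no neighbours in this order was the difference of the means larger than the larger of their SDs over cells.

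Within single libraries the top of this order was steadier than the means alone show. Per kilobase, SOX4 was above SOX11 in 78 of 84 libraries and was the highest of all 8 factors in 66. SOX11 and ZIC2, with nearly equal means, changed places from cell to cell, SOX11 being higher in 45 libraries and ZIC2 in 39. OTX2 stood above ETV5 by its mean but above it in only 29 libraries and below it in 51, and 42 libraries held no OTX2 read. A library held a median of 5 factors at 10 CPM or more, with a range of 2 to 8. All 8 were at that level in wells C9, G1, G8, G10, G12 and H5, and only 2 were in wells A5, C7, C12, F2 and F12. This number went with the number of genes detected (Spearman's rho = 0.42 over 84 libraries) and with gene reads (rho = 0.37), whose part in it was not tested. The 9 libraries with under 1% mitochondrial reads also had a median of 5 factors at 10 CPM, with a range of 3 to 6, where 1 read in the shallowest was worth more than 10 CPM.

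**Figure D1:**
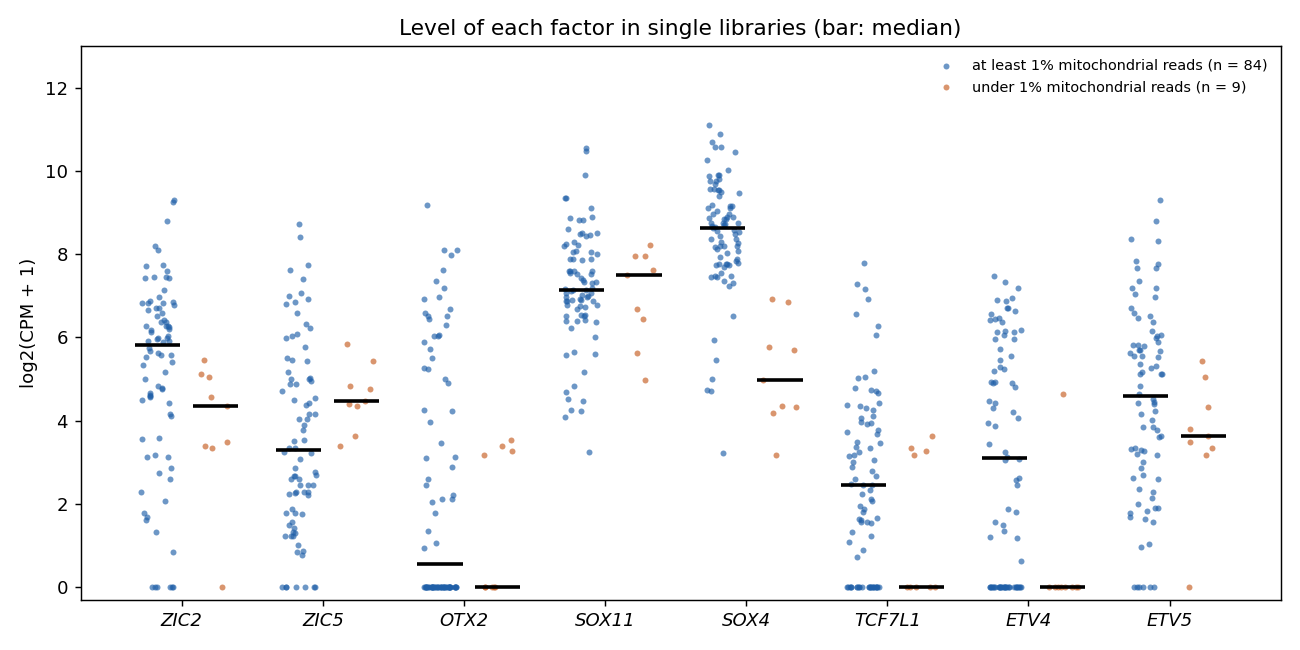
Level of each factor in every library, as log2(CPM + 1). Blue points are the 84 libraries with at least 1% mitochondrial reads, orange points the 9 libraries with under 1%, and black bars the medians; SOX4 is the factor whose blue points lie most clearly above the orange ones, with 77 of 84 above the highest of the 9.

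ZIC2 is a zinc finger factor of the ZIC family, known in humans as a gene whose loss of function causes holoprosencephaly. It lies at chr13:99981772-99986773 on the plus strand in GENCODE 29 on GRCh38. Its level ran from 0 through a median of 55.6 CPM to 624 CPM in well C3, closely followed by 607 CPM in well C4. Most libraries held ZIC2 reads: 78 of 84 (92.9%, exact Clopper-Pearson 95% interval 85.1 to 97.3%) had at least 1 and 68 had at least 3. At 10 CPM or more there were 65 libraries, while 23 were above 100 CPM. The mean was 82.5 ± 113 CPM (SD, n = 84 cells). Of the 9 libraries with under 1% mitochondrial reads, 8 held a ZIC2 read too, so a read alone does not set the 84 libraries apart. In these 9, 20 reads gave a pooled level of 19.8 CPM (exact Poisson 95% interval 12 to 31), and 48 of the 84 libraries lay above the highest of the 9. The 2 sets overlapped below that, at 36 libraries.

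ZIC5 is another member of the family and lies head to head with ZIC2, at chr13:99962964-99971909 on the minus strand, so that the starts of both genes are 9862 bases apart. Its levels were lower and more uneven, from 0 through a median of 8.76 CPM to 422 CPM in well E3. The mean was 37.4 ± 70.5 CPM (SD, n = 84 cells), more than 4 times the median. A read was found in 77 of 84 libraries (91.7%, interval 83.6 to 96.6%), but 10 CPM was reached in 40, and after thinning every library to 100000 gene reads 51 still held a read. All 9 libraries with under 1% mitochondrial reads held ZIC5 too, at a pooled 26.7 CPM (17.6 to 38.9, from 27 reads), and 16 of the 84 libraries lay above the highest of them. At its median, ZIC5 in the 84 libraries was thus lower than the pooled level of the 9, and low ZIC5 values cannot be told apart from the signal in those libraries.

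Although the pair shares 1 locus, ZIC2 and ZIC5 did not vary together from cell to cell. At 10 CPM or more, 29 libraries held both, 36 held ZIC2 alone, 11 held ZIC5 alone and 8 held neither. Spearman's rho between them was -0.17 over 84 libraries, the lowest of all 28 pairs, and -0.17 after the ranks of gene reads and genes detected were taken out. It was -0.14 in rows F and G and -0.069 in the other rows, a weak value on either side. In neither part was it the lowest pair: OTX2 with SOX11 had -0.33 in rows F and G, and SOX4 with ETV4 had -0.31 in the other rows. Between these parts of the plate ZIC2 and ZIC5 differed in opposite directions. ZIC2 had a median of 19.9 CPM in rows F and G, against 61.8 CPM elsewhere. ZIC5 had 33.1 CPM in rows F and G, against 5.07 CPM elsewhere. Row F had a ZIC2 median of 7.77 CPM and row G one of 49.97 CPM. The ranges overlapped for both genes, and the part played by depth and genes detected in these rows was not tested.

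**Figure D2:**
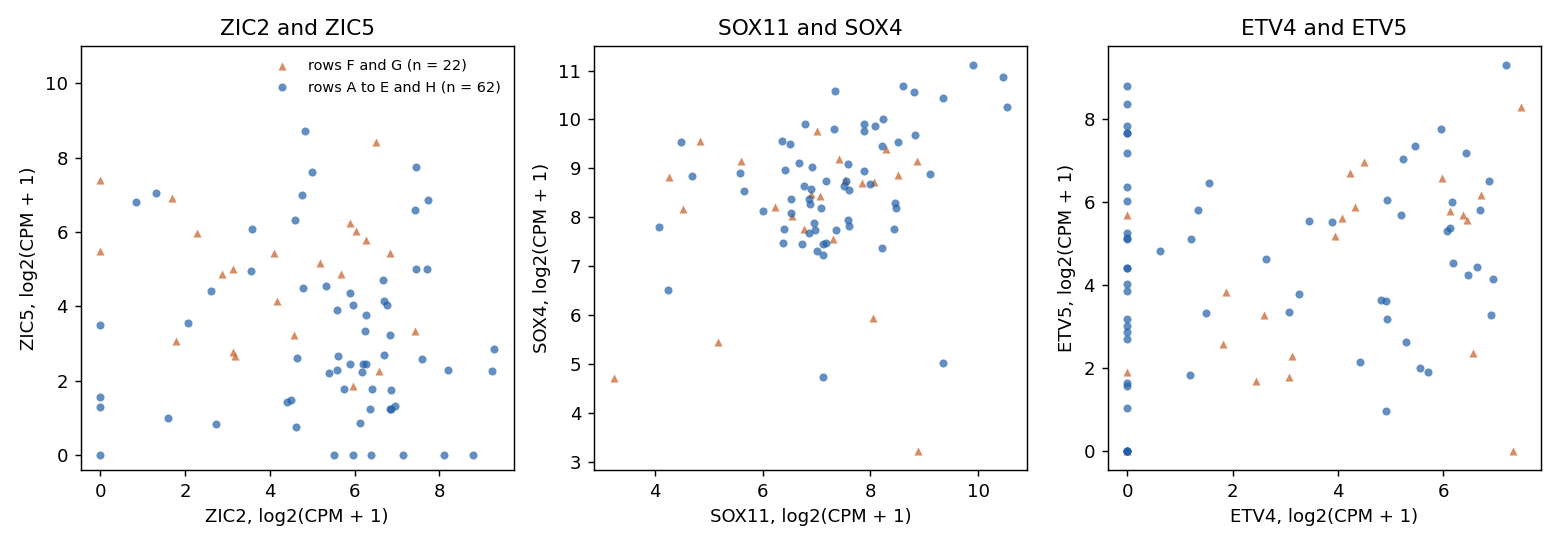
Levels of related factors in the same library, as log2(CPM + 1), for ZIC2 with ZIC5, SOX11 with SOX4, and ETV4 with ETV5. Orange triangles are the 22 libraries of rows F and G and blue circles the 62 of the other rows. Over all 84 libraries, SOX11 and SOX4 show the highest correlation of all pairs (rho = 0.30), and ZIC2 and ZIC5 the lowest (rho = -0.17).

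OTX2 is a homeodomain factor, known from mouse to be needed for the forebrain and to help move cells out of the naive state. The gene lies at chr14:56799905-56810479 on the minus strand. OTX2 had no read in 42 of 84 libraries (50%, interval 38.9 to 61.1%). The median was 0.460 CPM, and 29 libraries were at 10 CPM or more. The highest library, well B2, had 575 CPM from 166 reads and alone made up 17.6% of the summed CPM, while the next, well G11, had 275 CPM. Well B2 also had the fewest genes detected of the 84 libraries, 7986. The mean of 38.8 ± 85.7 CPM (SD, n = 84 cells) became 32.3 CPM without well B2. In the 9 libraries with under 1% mitochondrial reads, OTX2 had 4 reads in all, 3.96 CPM (1.08 to 10.1), and 28 of the 84 libraries lay above the highest of the 9.

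Libraries with OTX2 were unevenly placed on the plate. The median was 51.3 CPM in row G and 40.6 CPM in row D, with 7 libraries of each at 10 CPM or more, 11.4 CPM in row H, and 0 in rows A, B, C, E and F. Its level went with genes detected at rho = 0.31, against a median of 0.23 over 12387 genes, and with GAPDH at rho = 0.33. Relative to other genes of similar mean level, OTX2 was the most variable of the 8: the excess of its log2 squared coefficient of variation over the trend was 0.67, the 78.7th percentile of 8995 genes. ETV4 was the least variable, with an excess of -0.85 at the 14.7th percentile, and the other 6 lay between the 47.9th and the 66.3rd. None of the 8 thus stood at the extremes of this scale.

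**Figure D3:**
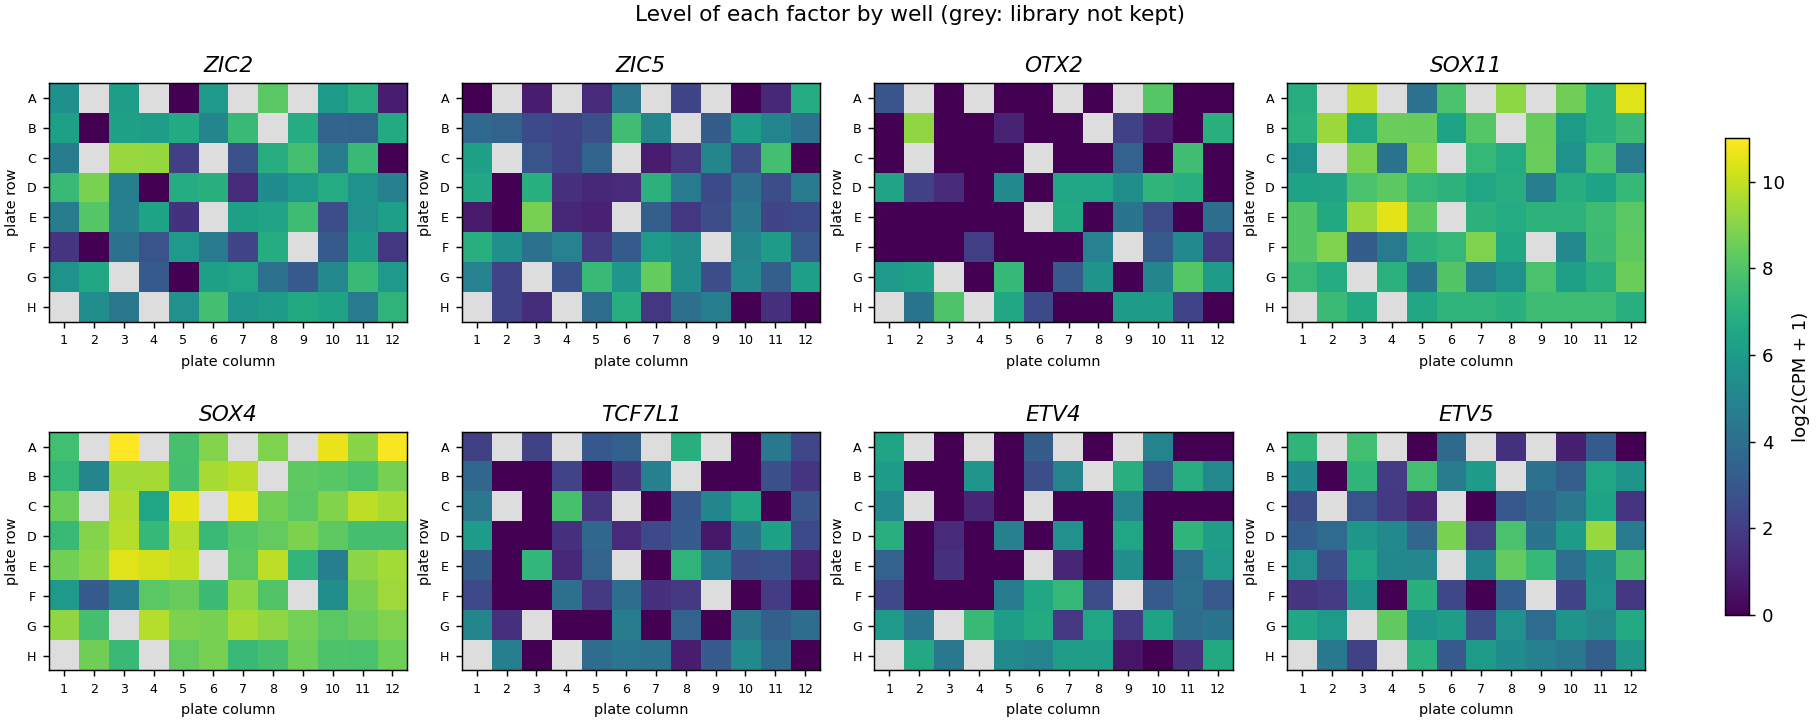
Level of each factor by well of the plate, as log2(CPM + 1), with plate columns across and plate rows down. Grey wells are the 12 libraries not used; OTX2 and ETV4 were at 0 in 42 and 29 libraries, and SOX4 and SOX11 in none.

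SOX11 and SOX4 are SoxC factors with a high mobility group domain, and each gene consists of a single exon. SOX11, at chr2:5692667-5701385 on the plus strand, ran from 8.44 through a median of 141 CPM to 1489 CPM in well E4, with a mean of 225 ± 253 CPM (SD, n = 84 cells). SOX11 was also read in all 9 libraries with under 1% mitochondrial reads, at 30.4 to 295 CPM each and at a pooled 165 CPM (141 to 192, from 167 reads), which is above the median of the 84 libraries. No more than 19 of the 84 libraries exceeded the highest of the 9, among them well E4 and well A12, at 1414 CPM. A noncoding RNA gene on the same strand, AC108025.2, overlaps SOX11 and had a mean of 31.6 CPM, and how the reads of the overlap were assigned was not tested.

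SOX4, at chr6:21592768-21598619 on the plus strand, was the most abundant of the 8. It ran from 8.30 through a median of 397 CPM to 2210 CPM in well A3, and 77 of 84 libraries were above 100 CPM. Its mean of 508 ± 427 CPM (SD, n = 84 cells) was 11.4 times (95% interval 8.52 to 15.6, for counting error of the pool) the pooled level of 44.6 CPM in the 9 libraries with under 1% mitochondrial reads. All but 7 of the 84 libraries lay above the highest of those 9. SOX4 had the smallest coefficient of variation of the 8, 0.84, against 1.12 for SOX11 and 2.21 for OTX2. It was the factor with the most negative relation to genes detected, with rho = -0.29 over 84 libraries, -0.029 in rows F and G and -0.41 in the other rows.

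The SoxC pair showed the highest correlation among the 28 pairs, with rho = 0.30 over 84 libraries and 0.24 after gene reads and genes detected were taken out. It was 0.13 in rows F and G and 0.35 in the other rows. The 4 libraries with the most SOX11, wells E4, A12, A3 and E3, had 1223 to 2210 CPM of SOX4. Other libraries went the other way: well B2 had 648 CPM of SOX11 and 31.2 CPM of SOX4, and well F2 had 473 CPM of SOX11 and the lowest SOX4 of all, 8.30 CPM. The medians of rows F and G were near those of the rest: 131 CPM for SOX11, against 143 CPM elsewhere, and 384 CPM for SOX4, against 397 CPM elsewhere. The means were lower in rows F and G: 168 CPM for SOX11, against 246 CPM elsewhere, and 376 CPM for SOX4, against 555 CPM elsewhere. Row F had a SOX4 median of 259 CPM and row G one of 455 CPM. Both genes had reads in all 84 libraries, unlike the other 6 factors, so this pair had no ties at 0.

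TCF7L1, a high mobility group factor of the TCF/LEF family and the member that mostly represses WNT targets in embryonic stem cells, was the lowest of the 8 per kilobase. Its gene spans chr2:85133410-85310388 on the plus strand. Levels ran from 0 through a median of 4.45 CPM to 219 CPM in well C4, and the mean was 17.1 ± 36.7 CPM (SD, n = 84 cells). A read was found in 61 of 84 libraries (72.6%, interval 61.8 to 81.8%), and 29 libraries were at 10 CPM or more. A few cells stood far above the rest, since 4 libraries exceeded 100 CPM and all of these lay outside rows F and G, where the highest was 31.6 CPM. Well C4 was also second in ZIC2, but over all libraries TCF7L1 and ZIC2 had a rho of 0.18, a weak value in sparse counts. The 9 libraries with under 1% mitochondrial reads held 4 reads of TCF7L1, 3.96 CPM (1.08 to 10.1).

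ETV4 and ETV5 are ETS factors of the PEA3 group, and both are transcribed in response to FGF signalling in many tissues. ETV4, at chr17:43527844-43579620 on the minus strand, ran from 0 through a median of 7.58 CPM to 176 CPM in well G4, with 29 libraries at 0 and 39 at 10 CPM or more. Its mean was 31.3 ± 43.2 CPM (SD, n = 84 cells). The 9 libraries with under 1% mitochondrial reads held 3 reads of ETV4, all in well F9, a pooled 2.97 CPM (0.613 to 8.68), so that the ratio of 10.5 has a counting interval of 3.60 to 51.1. ETV4 overlaps DHX8, a gene on the other strand with a mean of 22.9 CPM. The 2 strand-specific columns of the tables summed to 107% of the unstranded count for ETV4, against 100 to 100.2% for the other 7 factors, and the first of them held 50.9% of the ETV4 sum. The counts thus do not separate strands, and where the genes overlap a read cannot be assigned to ETV4 or to DHX8. The unstranded count used here left out some reads that the strand-specific columns gave to ETV4.

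ETV5, at chr3:186046308-186110318 on the minus strand, was read more often. Its levels ran from 0 through a median of 22.9 CPM to 631 CPM in well D11, with a mean of 61.6 ± 102 CPM (SD, n = 84 cells). A read was found in 78 of 84 libraries (92.9%, interval 85.1 to 97.3%), and 54 libraries were at 10 CPM or more. The 9 libraries with under 1% mitochondrial reads had a pooled 15.8 CPM (9.06 to 25.7, from 16 reads), and 33 of the 84 lay above the highest of them. The overlapping genes ETV5-AS1 and DGKG had mean levels of 0.217 and 2.64 CPM.

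As a pair, ETV4 and ETV5 were both at 10 CPM or more in 30 libraries, ETV4 alone in 9, ETV5 alone in 24 and neither in 21. Their rho was 0.21 over 84 libraries, 0.18 after gene reads and genes detected were taken out, 0.46 in the 22 libraries of rows F and G and 0.18 in the other rows. Over rows F and G together, both had higher medians: ETV4 had 16.7 CPM there, against 1.88 CPM elsewhere, and ETV5 had 40.7 CPM, against 21.4 CPM elsewhere. The rows differed, however, with medians in row F of 7.40 CPM for ETV4 and 3.88 CPM for ETV5, the lowest ETV5 median of all rows, and medians in row G of 61.6 and 54.6 CPM. The mean of ETV5 was lower in rows F and G, at 49.8 CPM, against 65.8 CPM elsewhere. For ETV4 this stood beside its relation to the genes detected, the strongest of the 8, with rho = 0.53 over 84 libraries. That relation was -0.12 in rows F and G and 0.62 in the other rows, and ETV4 also followed GAPDH (rho = 0.48) and ran against the share of the 5 abundant loci (rho = -0.41). How much of the ETV4 pattern follows library quality was not tested.

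Set against the 9 libraries with under 1% mitochondrial reads as a whole, 6 of the 8 factors had a mean at least 2-fold higher in the 84 libraries, and so did 62.5% of the 9398 genes whose mean reached 10 CPM. None was at least 2-fold lower, against 20.1% of those genes, and ZIC5 (1.40-fold) and SOX11 (1.36-fold) lay between. The median ratio was 4.24 for the 8 factors and 3.89 for all 9398 genes. The count of 6 of 8 is near the share of all genes, and nothing particular to the 8 factors is read from it.

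Across cells the 8 factors formed no common block. The median rho of their 28 pairs was 0.021, with a range of -0.17 to 0.30, and 16 pairs were above 0. The median over all pairs of 12387 genes was 0.058, with the central 90% of pairs between -0.23 and 0.34, so that every pair of factors lay inside that range. The 5 pairs at 0.2 or more were SOX11 with SOX4 (0.30), ZIC2 with ETV5 (0.25), ZIC5 with ETV4 (0.22), ETV4 with ETV5 (0.21) and ZIC5 with OTX2 (0.20). After gene reads and genes detected were taken out, ZIC2 with ETV5 had 0.25, whereas ZIC5 with ETV4 had 0.052 and ZIC5 with OTX2 had 0.10. All points of these correlations share 1 plate, and depth and the number of genes detected vary along them, and in counts as sparse as those of OTX2, TCF7L1 and ETV4 a weak correlation is no finding.

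**Figure D4:**
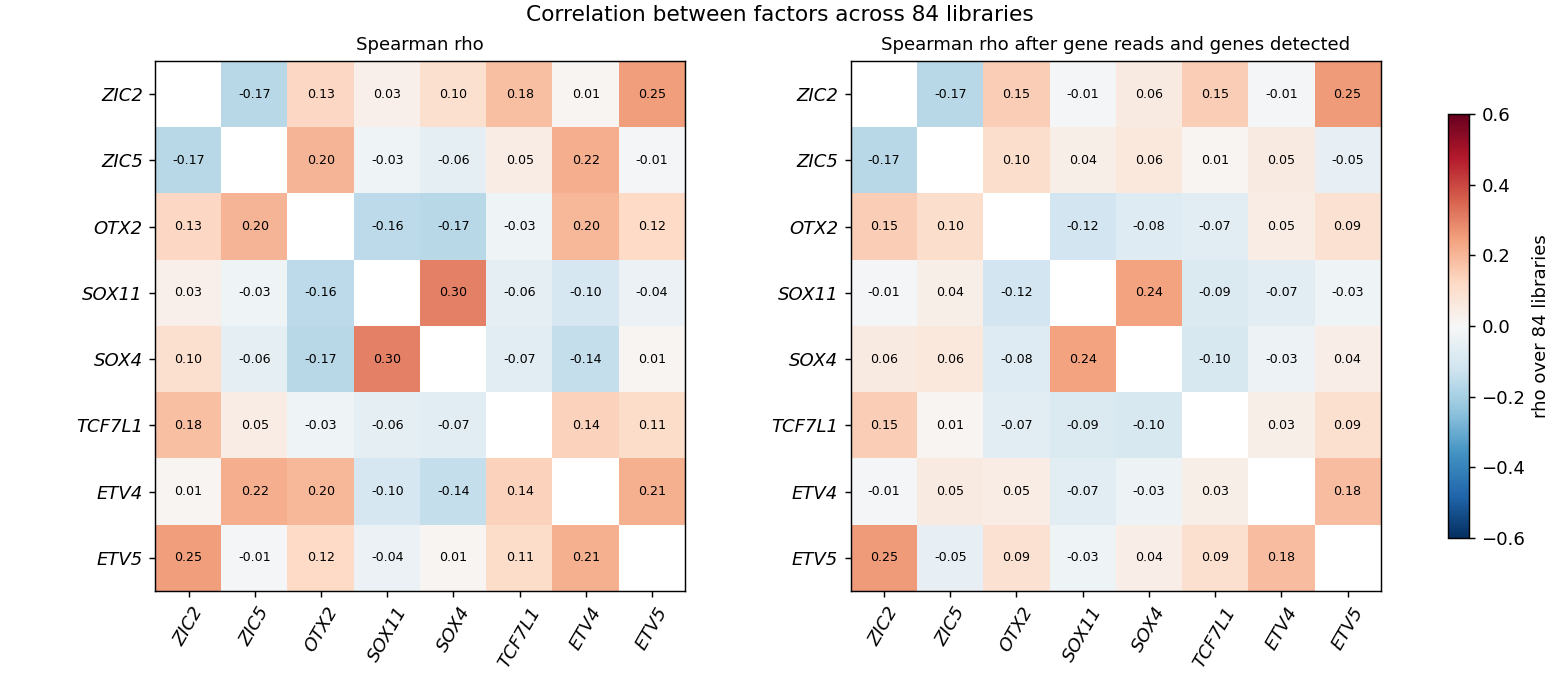
Spearman's rho between the 8 factors over 84 libraries, as measured (left) and after the ranks of gene reads and genes detected were taken out (right), with red for positive and blue for negative values. The SOX11 and SOX4 pair has the highest value on the left (0.30), and ZIC2 with ETV5 the highest on the right (0.25).

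Close relatives of the factors were read as well. Per kilobase, ETV1, the remaining PEA3 factor, averaged 15.8 CPM per kb, SOX2 13.1 and TCF7L2 11.2, so ETV1 was above the means of ETV4 and ETV5, and TCF7L2 above that of TCF7L1, each by less than the larger SD over cells. ZIC1 and OTX1 were low, at 0.372 and 0.724 CPM per kb. Of these relatives, SOX2 had the highest rho with ZIC2 (0.31 over 84 libraries) and with TCF7L1 (0.33).

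The surrounding state of the cells was read from further lists. Of 14 core pluripotency genes 12 had a mean of 10 CPM or more, and of all 58521 genes 15.4% did. Per kilobase, GDF3 was the highest of them at 557 CPM per kb, followed by TDGF1 at 227 and POU5F1 at 155. Of 8 other genes of the primed state 7 reached that mean, with the surface protein CD24 highest per kilobase at 147 CPM per kb, and of 10 naive genes only TFAP2C did, at 14.3 CPM. Of markers of other fates, 3 of 5 primitive streak genes, 5 of 12 neural genes, 1 of 5 endoderm genes, 1 of 6 trophoblast and amnion genes and 1 of 5 fibroblast genes had a mean of at least 10 CPM, counts that for the last 3 lists are near the share of all genes. In the sum of the 9 comparison libraries, 1 of 5 primitive streak, 9 of 12 neural, 3 of 5 endoderm, 3 of 6 trophoblast and amnion and 2 of 5 fibroblast genes reached 10 CPM. In the same sum, 7 of 14 core pluripotency genes, 5 of 8 other primed genes and 3 of 10 naive genes reached 10 CPM. The share of all genes that reached 10 CPM in this sum was not determined. The counts in it, here and for the signalling lists below, therefore have no background to be compared with. Of the neural genes, PAX6 had a mean of 148 CPM and MAP2 one of 116 CPM, against 1044 and 927 CPM in the sum of the 9 comparison libraries. The next highest neural gene in that sum was DCX, at 48.5 CPM. NES (55.8 CPM, against 8.91) and TUBB3 (20.2 CPM, against 17.8) were higher in the 84 libraries. The rest of the list was higher in the 9. The summed neural list ranged from 39.5 to 2106 CPM in the 84 libraries, and from 1172 to 3017 CPM in the 9, where PAX6 and MAP2 made up most of it.

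FGF pathway genes, the neighbours of ETV4 and ETV5 in signalling, had a mean of 10 CPM or more in 13 of 16 cases, against 15.4% of all genes. In the sum of the 9 libraries with under 1% mitochondrial reads, 8 of the 16 reached 10 CPM. The median rho of ETV4 with this list was 0.20, against 0.14 with all genes and 0.37 with 10 housekeeping genes. After gene reads and genes detected were taken out, these medians were 0.088 with the FGF list, 0.033 with all genes and 0.20 with the housekeeping genes. ETV5 had a median of 0.043 with the FGF list, below its medians of 0.066 with all genes and 0.16 with the housekeeping genes. Its highest value in the FGF list was with IL17RD, a feedback inhibitor of FGF signalling. That rho was 0.38 over 84 libraries, and 0.37 after gene reads and genes detected were taken out. SPRY4, another feedback inhibitor and the FGF gene with the highest mean per kilobase, had 321 ± 331 CPM (SD, n = 84 cells), against a pooled 2172 CPM in the 9 libraries with under 1% mitochondrial reads, and had the lowest rho of the list with ZIC5 (-0.42) and with ETV4 (-0.34). After gene reads and genes detected were taken out, these were -0.28 and 0.030, so the ETV4 value changed sign. Of 11 WNT pathway genes 7 reached a mean of 10 CPM, and 5 reached 10 CPM in the sum of the 9 libraries. FZD7 and CTNNB1 were highest per kilobase at 29.5 and 28.1 CPM per kb. The median rho of the WNT list with TCF7L1 was -0.056, against 0.0053 for all genes.

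Among single genes of these lists, ETV4 followed POU5F1, the core factor also known as OCT4, at rho = 0.55 over 84 libraries. This value was 0.39 after gene reads and genes detected were taken out. ETV4 followed the housekeeping gene PPIA about as closely, at rho = 0.60, and at 0.37 after the same step. OTX2 followed EOMES, a primitive streak factor, at rho = 0.34 (0.28 after the same step), and its median rho with 4 primitive streak genes was 0.23, against 0.096 with all genes. ZIC2 followed MIXL1, another primitive streak factor, at rho = 0.33. The median rho of ZIC2 with the 4 primitive streak genes was 0.0031, against 0.027 with all genes. SOX4 followed TDGF1, a co-receptor for NODAL, at rho = 0.34. The median rho of SOX4 with 13 core pluripotency genes was -0.010, against -0.10 with all genes. SOX4 and SOX11 had negative medians with the neural list, -0.19 and -0.21, against -0.10 and -0.073 with all genes, which became -0.066 and -0.083, against -0.020 and -0.031, after gene reads and genes detected were taken out. The single genes were the highest of their lists and were picked for that.

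**Figure D5:**
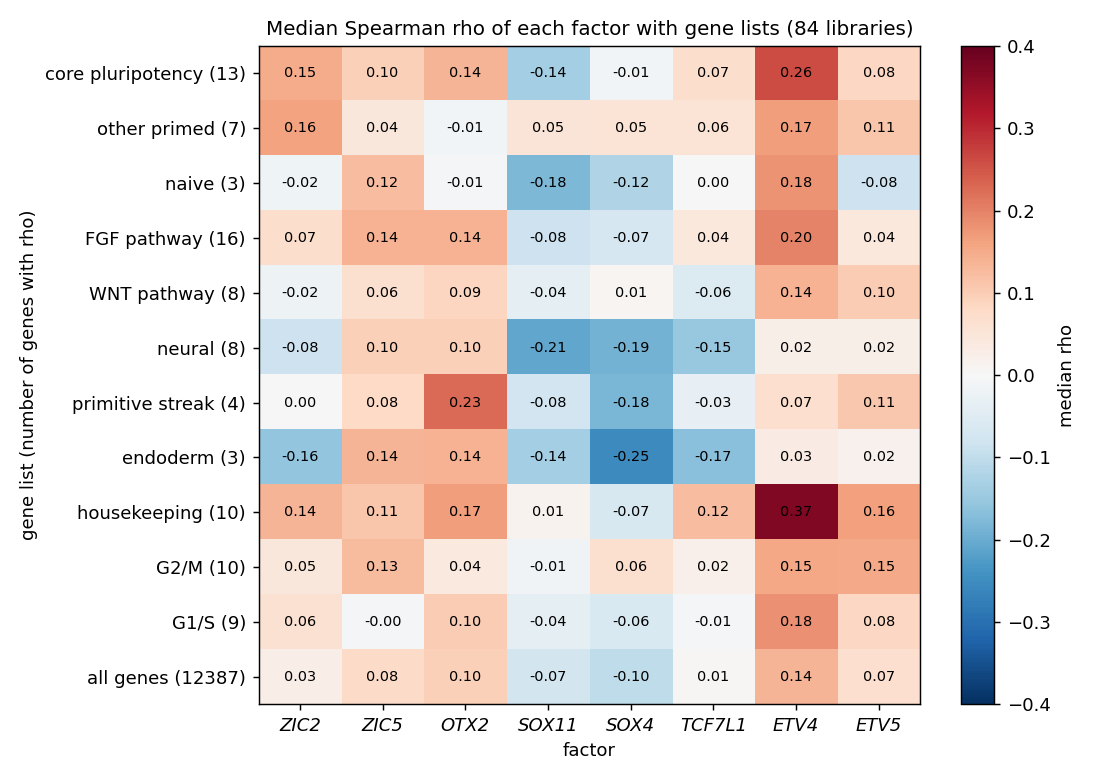
Median Spearman's rho of each factor (columns) with the genes of each list (rows, with the number of genes that had a rho) over 84 libraries, red for positive and blue for negative. ETV4 has its highest median with housekeeping genes (0.37), OTX2 with primitive streak genes (0.23), and SOX11 and SOX4 lie below 0 with neural genes.

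The genes whose levels were most like those of each factor were sought among the 12387 genes read in 50% or more of the libraries. For SOX4 the nearest gene was MARCKS, a membrane-bound substrate of protein kinase C, with rho = 0.55 over 84 libraries, followed by GTF3C6 and RPS24. For SOX11 they were the proteasome genes PSMA4 (0.47) and PSMA3, and again RPS24. ZIC2 was nearest to FGD4 (0.46), DDX42 and OR4B2P, and ZIC5 to ZNF260 (0.51), RBL1 and CYB5R4. OTX2 had RPSAP54 (0.48), HNRNPA1L2 and EXOC6B, TCF7L1 had KIAA0195 (0.42), MCRS1 and CDC73, and ETV5 had USP7 (0.50), GABPB1-AS1 and REST. Some of these genes were low, with means of 2.04 CPM for RPSAP54, 3.08 for HNRNPA1L2, 4.23 for OR4B2P and 5.16 for KIAA0195. After gene reads and genes detected were taken out, another gene was nearest to ZIC5, OTX2 and SOX4. The nearest gene stayed the same for ZIC2, SOX11, TCF7L1 and ETV5.

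ETV4 was again different from the other 7 in number: 387 genes had a rho of at least 0.4 with it, led by POU5F1P4 (0.61), a processed copy of POU5F1, with ARPC1B and PPIAP22 next. Between 2 and 40 genes passed that value for the other factors. After gene reads and genes detected were taken out, 14 genes were left for ETV4, and between 2 and 18 for the others. POU5F1P4 was then at 0.47 and no longer the gene nearest to ETV4. POU5F1P4 and POU5F1 have near-identical sequences, so reads may be split between them, as with the further copies RPSAP54, PPIAP22 and HNRNPA1L2 and their parent genes, and the mean of POU5F1P4 was 1.87 CPM.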

How the data were processed

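The authors deposited 1 table of raw read counts per library, with 58521 gene symbols, 4 summary lines and 3 count columns (unstranded, and 1 per strand). Per the labels' protocols, polyadenylated RNA was captured from the lysate of single cells and amplified by SMART-seq2, and libraries were made with Nextera XT, with no molecular identifiers named. Per the submitters' processing notes, the tools named are STAR 2.7.3a and FastQC and the builds named are hg38 and GRCh38.p2, while the annotation release is not given in the sources used here. The summary lines held 88.8% of all reads and entered no level. The unstranded column was used, scaled to CPM over all genes of a library. The well was taken from the title, and for 16 libraries the table's name gave another plate column.

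Gene positions and exon lengths came from GENCODE 29 on GRCh38, which may differ from the annotation behind the tables, and start sequences from RefSeq GRCh38.p14. Correlations were Spearman's rho, also on ranks with gene reads and genes detected regressed out. Excess variability was log2 squared CV minus a lowess trend (span 0.5) on log2 mean CPM, over genes whose mean reached 10 CPM and which were read in 10% or more of the libraries. Shares have exact Clopper-Pearson and pooled levels exact Poisson 95% intervals, which cover counting error only, since reads without molecular identifiers are not independent molecules. Libraries were thinned to 100000 gene reads with seed 1. All wells formed 1 group, so no test was made. The 5 abundant loci were a list of genes with many reads in the libraries with under 1% mitochondrial reads. Of the 12 libraries not used for levels, 9 had under 1% mitochondrial reads and formed the comparison pool, and 3 had 768 to 1133 gene reads and were left out. Scripts were tested on simulated data. Python 3.11.15, NumPy 2.4.6, pandas 2.3.3, SciPy 1.17.1, statsmodels 0.14.6 and R 4.3.3 were used, with edgeR 4.0.16 (TMM factors) and DESeq2 1.42.0 (size factors) for alternative scaling.

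The 8 genes and all lists were chosen with earlier results of these data known. Besides the 8, genes were named as the 3 most like each, as the highest means and extreme correlations in each list, or as genes that overlap one of them. A relative of the 8 genes is not reported here.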

Additional observations from a re-analysis of the deposited data

Results flagged for a closer look

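In the 9 libraries with under 1% mitochondrial reads, ETV4 had 23.97 CPM in well F9 and 0 in the other 8. It was noted because a single value stood apart from the rest, but with all others at 0 any read would have done so. The value rests on 3 reads and is not distinguished from the absence of the gene. The check covered 8 genes.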

How the results depend on the processing

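Over 72 comparisons with other scalings, strand columns, library limits and parts of the plate, the mean levels of the 8 factors were 0.828 (OTX2, at least 300000 gene reads) to 1.36 times (SOX11, DESeq2 size factors) their value. All lay within 1 SD over cells, a wide limit since for 7 of the 8 that SD exceeds the mean. Their excess variability moved by less than 1 SD over genes (0.999) in 16 comparisons, also a wide limit. Without the filter on low levels, the excess of SOX4 went from 0.20 to -0.22 and that of TCF7L1 from -0.00044 to 0.24. The median rho between factors moved by less than 1 SD of the pairs in all 6 settings tried. The share of libraries with a read depended on depth and on the limit in reads. Thinned to 100000 gene reads, it was 79.8% for ZIC2, 60.7% for ZIC5, 44.05% for TCF7L1, 53.6% for ETV4 and 76.2% for ETV5. With at least 3 reads required, it was 80.95% for ZIC2, 66.7% for ZIC5, 55.95% for TCF7L1, 53.6% for ETV4 and 75% for ETV5. In rows F and G alone, rho was 0.13 for SOX11 with SOX4 and 0.46 for ETV4 with ETV5. For ETV4 with POU5F1P4, rho was 0.47 after gene reads and genes detected were taken out. A further 22 shares stayed within their 95% interval, and 23 further values of rho within 1 SD of the 28 pairs. The causes were not tested. Values at or under 3 reads, up to 25.3 CPM, cannot be told from the absence of the gene. No paired analysis was possible because all libraries form 1 group.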
